A study of Mus musculus with 10 samples.

Results

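The 2 corticosteroid receptors, the enzyme that regenerates their hormone and 7 well known glucocorticoid target genes were measured in the hippocampus of adult mice whose dams had been given estradiol during pregnancy. The 10 genes were Nr3c1, Nr3c2, Hsd11b1, Fkbp5, Sgk1, Tsc22d3, Pdk4, Mt1, Mt2 and Zbtb16. They were found as all non-control probes whose gene name, current or older, was one of these symbols. This gave 20 of the 41174 probes on the array, for 9 of the 10 genes. Zbtb16, a zinc finger transcription factor, was not analysed here. Of the 20 probes, 19 were bright enough to enter the test, among 30981 probes that did so, and they stood for 9 of the 20068 genes tested.

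The animals were ICR mice, an outbred laboratory stock, all adult and all labelled male. The high estradiol group (HE, n = 5) came from dams that received estradiol valerate, an ester that releases estradiol, by mouth in corn oil. The daily dose was 100 µg/kg, and dosing ran between gestational days E5.5 and E11.5. The negative control group (NC, n = 5) came from dams that received corn oil alone. Each animal gave 1 single-colour Agilent array of hippocampal RNA. The dose was given to the dam while the animals measured here were embryos. The labels name no litter, so that spread among these 10 animals is all that the p-values rest on.

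Corticosterone, the main glucocorticoid of the mouse, crosses the cell membrane and binds receptors held in the cytoplasm by chaperones. The hippocampus is known for carrying both kinds: the mineralocorticoid receptor, which binds corticosterone with high affinity, and the glucocorticoid receptor, which binds it with lower affinity and is engaged during stress and at the daily peak. The bound receptor enters the nucleus and binds palindromic glucocorticoid response elements, which raises the transcription of target genes such as Fkbp5, Sgk1, Tsc22d3 and the metallothioneins.

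Of the 3 slides used, the first carried 4 NC arrays (NC 1 to NC 4) and the third 3 HE arrays (HE 3 to HE 5), so that only slide 2 carried both groups (NC 5 with HE 1 and HE 2). The arrays had 75th percentiles of 899 to 1289, with the share of probes well above background at 70.3% to 78.9%. Xist, made from the inactive X chromosome, was high on 7 arrays (NC 1 to NC 4 and HE 1 to HE 3), against the male label. Of the tissue markers, 5 of 14 hippocampal neuron genes rose in HE, 7 of 10 thalamus genes and 9 of 12 myelin genes fell, and 4 of 7 liver genes fell. Further, 2 of 12 endothelial and pericyte genes fell, 1 of 8 microglia genes rose and 0 of 8 choroid plexus genes changed. These are limma calls at an adjusted p under 0.05, where 6.82% of all genes were called higher and 13.3% lower. The median of the liver genes was -2.24 to -1.39 on NC 1, NC 2 and NC 4 but -8.77 to -5.83 on the other 7 arrays. All signals are log2 values relative to the 75th percentile of their own array, which compare arrays for 1 probe and not probes with each other. In bulk tissue, fewer cells of a type and less RNA per cell cannot be told apart.

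HE was compared with NC to ask how maternal estradiol excess relates to gene expression in the adult offspring. Among the glucocorticoid genes Pdk4 fell in HE, by 0.63 on the log2 scale, and no other member passed the gene-level test. Tsc22d3, Hsd11b1, Mt1 and Mt2 had log2 fold changes between -0.54 and -0.46 that did not pass. Nr3c1, Nr3c2, Fkbp5 and Sgk1 lay between -0.18 and 0.21, and Nr3c2, Fkbp5 and Sgk1 changed sign under another scaling. In the count, 1 of 9 members (11.1%) was called by limma at an adjusted p under 0.05, where 20.1% of all genes tested were called. The members' share is therefore not above the background. Of all genes, 13.3% were called lower and 6.82% higher in HE. The groups were fully separated for 1 member, Pdk4, and for 16.4% of all genes. The members' median log2 fold change was -0.462, and 8 of 9 were negative, beside a median of -0.043 and 54.7% negative over all genes. After quantile normalization 6 of 9 were negative, and after normexp background correction with centring on the median gene 7 of 9 were. Centred instead on the median of the probes tested, only Nr3c2, Fkbp5 and Pdk4 were negative (-0.46, -0.16 and -0.16). Tsc22d3, Hsd11b1, Mt1 and Mt2 then lay at 0.02 to 0.06. With the myelin mean as a covariate 5 of 9 were negative, and with the thalamus mean 3 of 9, with a median of 0.07. With slide as a block, which leaves the difference of HE 1 and HE 2 from NC 5 within slide 2, no member passed and 185 genes passed in all. An unadjusted limma p under 0.05 was then found for 4 of 9 members and for 4713 of the 20068 genes.

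**Figure D1:**
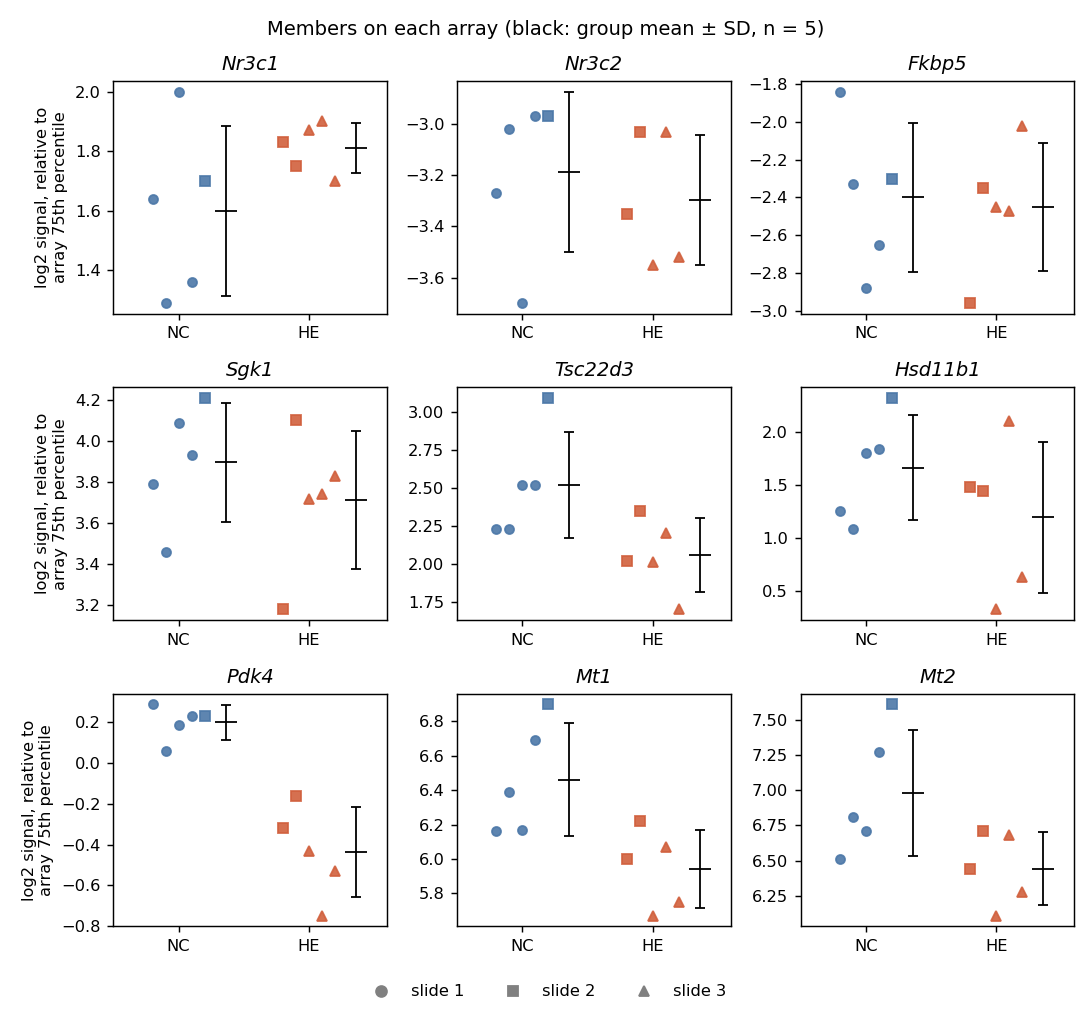
Log2 signal of the 9 measured members on each of the 10 arrays, relative to the 75th percentile of the array, for NC (blue) and HE (red). Marker shapes give the slide, and black bars the group mean and SD (n = 5); each panel has its own axis. In the Pdk4 panel all HE arrays lie at -0.16 or lower and all NC arrays at 0.06 or higher, while the groups overlap in the other panels.

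Of the receptors, Nr3c1 encodes the glucocorticoid receptor. It had 4 probes, all on 1 transcript on chromosome 18 (mm9, 39570619 to 39574242 from the first to the last probe base, minus strand). The brightest, A_52_P138090, which begins at base 5849 of the transcript, read 1.64, 1.29, 2.0, 1.36 and 1.70 on NC 1 to NC 5 and 1.83, 1.75, 1.87, 1.90 and 1.70 on HE 1 to HE 5. The HE arrays lay within the NC range, and they varied less (SD 0.08 against 0.29, n = 5 each). The group difference was 0.21 ± 0.13 SE (limma adjusted p = 0.273).

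The most 5′ of the Nr3c1 probes, A_52_P254174 at transcript base 2285, behaved differently. It read -0.54, -0.94, -1.02, -1.11 and -1.12 on NC 1 to NC 5, and -1.36, -1.21, -1.61, -1.26 and -1.58 on HE 1 to HE 5. All HE arrays were below all NC arrays, and in the fit over all probes it fell by 0.46 (± 0.14 SE, limma adjusted p = 0.0375). Over all probes tested 22.9% were called, 14.7% lower and 8.20% higher. The call was lost without NC 1, NC 2, NC 5, HE 1, HE 3, HE 4 or HE 5 in turn (log2 fold changes -0.50 to -0.35 over the arrays left out) and with slide as a block, where the difference was -0.16. Centred normexp values also gave -0.16 (limma adjusted p = 0.322), and with the replicate number as a block the adjusted p was 0.0531. The probes at bases 2478 and 3597 had differences of 0.03 ± 0.14 and 0.18 ± 0.14. Under normexp the probe at base 2478 gave -0.96 (limma adjusted p = 0.039), and -0.59 when centred (limma adjusted p = 0.0499). The contrast of A_52_P254174 with this probe therefore depended on the background correction: it was -0.49 without normexp and 0.44 with it. The contrast with the probe at base 3597, given next, was -0.59 under normexp. Within each array, the signal of A_52_P254174 minus that of the probe at base 3597 went from -0.18 ± 0.35 (SD, n = 5) in NC to -0.82 ± 0.15 in HE, without overlap. An exact permutation test gave p = 0.00794 for this difference of -0.64, the smallest that 5 against 5 arrays can give. It was 0.127 after adjustment over the 16 probe pairs of the members, of which none passed. With this design and 16 pairs, 1 pair with full separation cannot pass on its own, so the test cannot decide for this pair. The pairs were compared after seeing the data, which the unadjusted p does not allow for. The groups were only just apart, with the lowest NC array at -0.61 and the highest HE array at -0.62. Within slide 2 the difference was -0.36.

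Nr3c2 encodes the mineralocorticoid receptor, on chromosome 8 (mm9, probes from 79432389 to 79433585). Its 3 probes were dim, and with the main processing all 3 gave negative differences that did not pass. The brightest, A_52_P378137, read -3.27, -3.02, -3.70, -2.97 and -2.97 in NC and -3.35, -3.03, -3.55, -3.03 and -3.52 in HE. The groups covered nearly the same range, and the difference was -0.11 ± 0.17 SE (limma adjusted p = 0.675); it was 0.10 after quantile normalization. Under normexp it was -0.83 (limma adjusted p = 0.0617). The other 2 probes gave -0.16 ± 0.23 and -0.44 ± 0.33, and the last of them cleared the background on 3 NC and 3 HE arrays only. This last probe was called lower with the replicate block, under normexp (-1.38, limma adjusted p = 0.0421) and under centred normexp (-1.01, limma adjusted p = 0.0404).

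Hsd11b1 encodes the 11β-hydroxysteroid dehydrogenase that turns inactive 11-dehydrocorticosterone back into corticosterone inside the cell. Its probe lies at 195048169 to 195048228 on chromosome 1 (mm9). Among the members it had the largest SD in each group, and read 1.26, 1.09, 1.80, 1.84 and 2.32 in NC and 1.48, 1.44, 0.33, 2.10 and 0.64 in HE. HE 3 and HE 5 lay below every other array, and HE 4 lay above 4 of the 5 NC arrays. The difference was -0.46 ± 0.35 SE (limma adjusted p = 0.368), which is less than the spread within HE (SD 0.71).

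Fkbp5 encodes a co-chaperone that lowers the affinity of the glucocorticoid receptor for its hormone, and is itself induced by the receptor. Its 3 probes, on chromosome 17 (mm9, 28536878 to 28575054), did not behave alike. The brightest, A_52_P481493 at transcript base 314, stands for the gene. It read -1.84, -2.33, -2.88, -2.65 and -2.30 in NC and -2.96, -2.35, -2.45, -2.47 and -2.02 in HE, so that the groups covered the same range (difference -0.05 ± 0.22 SE, limma adjusted p = 0.884).

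The 2 probes toward the 3′ end of Fkbp5 rose. A_51_P383689, at base 2607, read -3.96, -4.25, -3.88, -3.09 and -3.78 in NC and -3.35, -3.11, -2.44, -2.94 and -2.86 in HE. A single NC array, NC 4, reached into the HE range, and the difference was 0.85 ± 0.23 SE (1.81-fold, limma adjusted p = 0.0257). A_52_P337899, at base 1892, read -4.70, -4.77, -4.76, -4.13 and -4.61 in NC and -4.40, -3.97, -3.67, -4.06 and -3.92 in HE, a difference of 0.59 ± 0.16 SE (limma adjusted p = 0.0297). NC 4 was again the highest NC array and overlapped HE. Both probes were negative under normexp background correction, at -0.33 and -0.79, and with slide as a block their differences were 0.55 and 0.42 and did not pass. The call on the probe at base 2607 was lost without NC 2, NC 5, HE 3 or HE 5, and that on the probe at base 1892 was kept only without NC 4 or HE 1. The difference between the probes at bases 314 and 2607 went from 1.39 ± 0.69 in NC to 0.49 ± 0.34 in HE (exact permutation p = 0.0397, adjusted p = 0.127 over the 16 pairs). With the mean of all entering probes as the gene's value, Fkbp5 had a log2 fold change of 0.46 and an adjusted p of 0.0571.

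**Figure D2:**
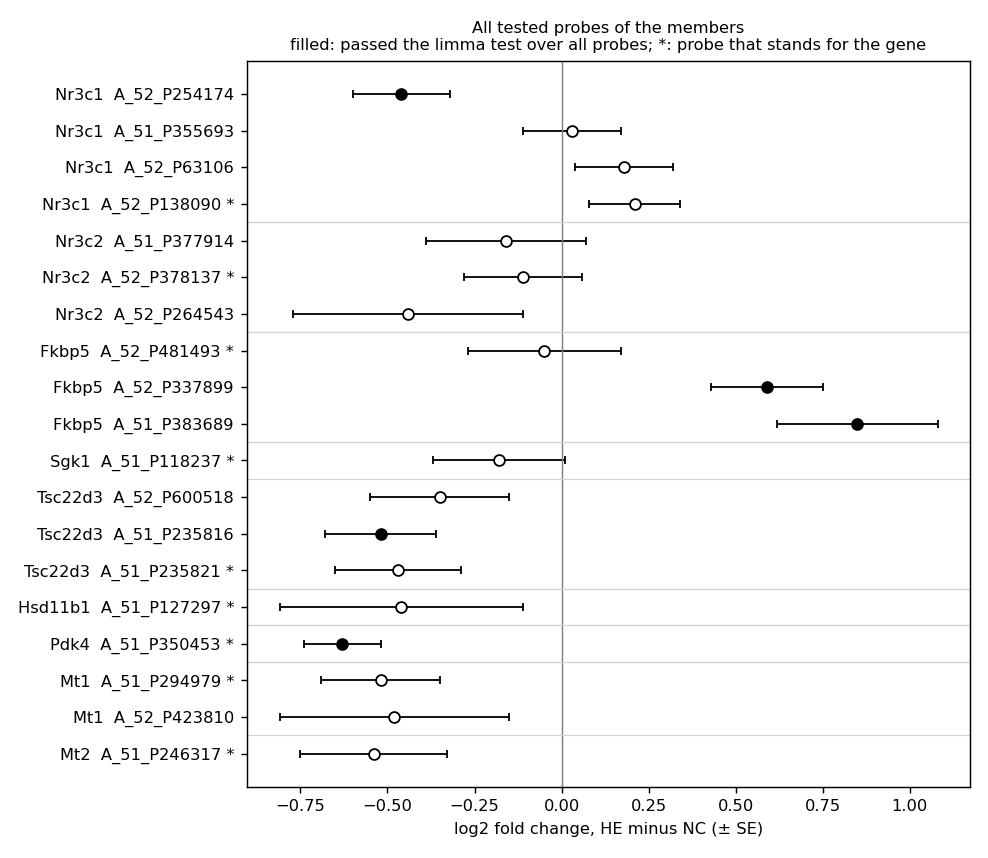
Log2 fold change of HE over NC with its SE for the 19 tested probes of the members, ordered within a gene by start base on the probe's own transcript record. For Tsc22d3 and Mt1 the probes are on different records, and their order there is not that from 5′ to 3′ on the chromosome. Filled points passed the limma test over all probes, and a star marks the probe that stands for its gene. The probes of Fkbp5 run from -0.05 to 0.85 and those of Nr3c1 from -0.46 to 0.21, while the probes of Tsc22d3 and of Mt1 lie close together.

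At the level of probes, 5 of 19 (26.3%) were called, beside the 22.9% of all probes. They belonged to 4 genes: the Pdk4 probe, 1 of 3 Tsc22d3 probes and 1 of 4 Nr3c1 probes were lower, and 2 of 3 Fkbp5 probes were higher in HE. Probes of the same gene thus fell on different sides of the threshold for Nr3c1, Tsc22d3 and Fkbp5.

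Sgk1 encodes a serum- and glucocorticoid-induced kinase that regulates ion channels and transporters. In the promoter table of RefSeq (GRCm38.p6), 8 of the 10 genes have windows of 250 bases before to 50 bases after a start, 15 windows in all. The perfect palindrome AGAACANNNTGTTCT, searched on both strands, was found in 1 of these 15 windows, at a start of Sgk1, and in 3 of 32851 windows of all genes (0.00913%). It spans positions -189 to -175 relative to that start. The stretch at chr10:21993656-21993760 (GRCm38.p6, plus strand) is shown because this palindrome is the textbook response element of the receptor, with the palindrome in capitals.
Sgk1: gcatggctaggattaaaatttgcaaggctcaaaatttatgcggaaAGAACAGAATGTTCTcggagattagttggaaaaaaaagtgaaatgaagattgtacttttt
The shorter core ACANNNTGT, which the palindrome contains, was in 3 of the 15 windows, at 2 starts of Sgk1 and at Mt1, and in 6.85% of all windows.

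The Sgk1 probe that entered the test, A_51_P118237 (chromosome 10, 21719390 to 21719449, mm9), read 3.79, 3.46, 4.09, 3.93 and 4.21 in NC and 3.18, 4.10, 3.72, 3.74 and 3.83 in HE. HE 1 was the lowest array and HE 2 lay among the highest, and the difference was -0.18 ± 0.19 SE (limma adjusted p = 0.513). With centred normexp values it was 0.22. The second Sgk1 probe, for another transcript, cleared the background on 0 NC arrays and 2 HE arrays, and was not tested.

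Tsc22d3 encodes GILZ, a leucine zipper protein through which glucocorticoids act against inflammation. Its 3 probes lie on the X chromosome (mm9, 137074267 to 137075010, minus strand). The probe that stands for the gene, A_51_P235821, read 2.23, 2.23, 2.52, 2.52 and 3.09 in NC and 2.02, 2.35, 2.01, 2.20 and 1.70 in HE. NC 5 was the highest array, and HE 2 alone exceeded the lowest NC arrays. The difference was -0.47 ± 0.18 SE (limma adjusted p = 0.0941). The neighbouring probe A_51_P235816 fell by 0.52 (± 0.16 SE, limma adjusted p = 0.039), with HE at 1.61 to 2.18 and NC at 2.23 to 2.94, and A_52_P600518 gave -0.35 ± 0.20. The call of A_51_P235816 was kept in 2 of 10 fits that left out an array, those without NC 1 and without HE 2. The gene's difference was -0.91 with slide as a block, and with centred normexp values it was -0.12.

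Pdk4 encodes pyruvate dehydrogenase kinase 4, which phosphorylates and switches off the pyruvate dehydrogenase complex and so spares glucose; it is induced by glucocorticoids and by fasting. Its probe lies on chromosome 6 (mm9, 5433441 to 5433500, minus strand). It read 0.29, 0.06, 0.19, 0.23 and 0.23 on NC 1 to NC 5, which is 0.20 ± 0.09 (SD, n = 5), and -0.32, -0.16, -0.43, -0.75 and -0.53 on HE 1 to HE 5, which is -0.44 ± 0.22. Every HE array was below every NC array. Pdk4 fell by 0.63 (± 0.11 SE), to 0.644 of its NC level, with a limma adjusted p of 0.0106. It was called in all 10 fits that left out an array, with log2 fold changes of -0.70 to -0.56. The difference kept its sign under all 27 alternatives. With slide as a block it was -0.46 ± 0.18 (adjusted p = 0.184). Centred normexp values gave -0.30 in the fit over genes (limma adjusted p = 0.1) and -0.16 in that over probes (limma adjusted p = 0.462). Without NC 1, NC 2 and NC 4, the arrays with high liver genes, the Pdk4 difference was -0.64 (adjusted p = 0.0554). Myelin genes moved with the same groups: 9 of 12 fell, beside 13.3% of all genes called lower. Their median was 3.74 to 4.02 over the NC arrays and 2.66 to 3.20 over the HE arrays. With the myelin mean as a covariate the Pdk4 difference was -0.31 ± 0.25 (adjusted p = 0.544), and with the thalamus mean it was -0.75 ± 0.20 (adjusted p = 0.219). The median of the thalamus genes was 0.40 to 2.16 over the NC arrays and -0.99 to 0.26 over the HE arrays.

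Mt1 and Mt2 encode metallothioneins, small cysteine-rich proteins that bind zinc and copper; in the brain they are made largely by astrocytes, and both metals and glucocorticoids induce them. The genes are neighbours on chromosome 8. Searched on both strands, the metal response core TGCACNC was in the windows of Mt1, Mt2 and Hsd11b1 among the members and in 12.6% of all windows, and TGCGCNC in those of Mt1, Mt2, Nr3c2 and 1 of Sgk1 and in 15.4% of all windows. The 150 bases before the start of each gene are shown because these are the members that moved together most closely. Capitals mark the cores, whose part in that movement was not tested (GRCm38.p6, plus strand, chr8:94178939-94179088 for Mt1 and chr8:94172468-94172617 for Mt2).
Mt1: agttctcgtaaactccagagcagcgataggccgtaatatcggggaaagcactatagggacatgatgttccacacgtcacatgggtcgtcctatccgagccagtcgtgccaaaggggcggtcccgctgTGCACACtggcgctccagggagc
Mt2: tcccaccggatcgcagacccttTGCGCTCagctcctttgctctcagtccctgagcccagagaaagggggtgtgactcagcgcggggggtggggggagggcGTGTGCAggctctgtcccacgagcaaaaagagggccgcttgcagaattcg
The Mt1 stretch holds 1 core and the Mt2 stretch 2, but the windows reach further than these stretches. The whole Mt1 window holds 2 TGCACNC and 1 TGCGCNC, and the whole Mt2 window 2 of each.

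Mt1 (probe A_51_P294979, mm9, 96704011 to 96704070) read 6.16, 6.39, 6.17, 6.69 and 6.90 in NC and 6.0, 6.22, 5.67, 6.07 and 5.75 in HE. NC 5 and NC 4 were highest, and HE 2 alone exceeded the lowest NC arrays. The difference was -0.52 ± 0.17 SE (limma adjusted p = 0.055), just above the threshold of 0.05. It was called in 5 of 27 alternatives, among them those without NC 1 and without NC 3. This probe is printed 10 times on each array, and the SD between its spots was 0.040 to 0.075 within an array, while the SD between animals was 0.32 in NC and 0.23 in HE. The second Mt1 probe, A_52_P423810, gave -0.48 ± 0.33.

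Mt2 (probe A_51_P246317, 96697371 to 96697430) read 6.51, 6.81, 6.71, 7.27 and 7.61 in NC and 6.44, 6.71, 6.11, 6.68 and 6.28 in HE. The order of the arrays was close to that of Mt1, with NC 5 highest and HE 3 lowest. The difference was -0.54 ± 0.21 SE (limma adjusted p = 0.0998). With slide as a block the differences were -0.79 for Mt1 and -1.04 for Mt2, and with centred normexp values -0.09 and -0.13; none of these passed.

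Of 11 astrocyte markers, Aqp4, the water channel of astrocyte endfeet, fell (from 2.96 ± 0.51 to 2.08 ± 0.24, limma adjusted p = 0.028) and 10 did not pass. The share called was 9.09%, beside 20.1% of all genes tested. The markers did not share a direction. Slc1a2 and Slc1a3, the glutamate transporters of astrocytes, had 0.22 ± 0.10 and 0.22 ± 0.08, with Slc1a3 higher on every HE than on every NC array, and Sox9, Slc4a4 and Fgfr3 had 0.12 to 0.17. Gfap, the astrocyte filament protein, had -0.72 ± 0.33, and Gjb6, Aldoc, Aldh1l1 and Gja1 had -0.44, -0.28, -0.14 and -0.13. The median log2 fold change of the 11 was -0.13. Their median signal was 2.24 to 3.19 over the NC arrays, highest on NC 5, and 1.80 to 2.38 over the HE arrays, lowest on HE 5 and HE 3. Of the 11, 1, Gjb6, is also on the list of glucocorticoid targets. Their part in the Mt1, Mt2 and Tsc22d3 differences was not tested.

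**Figure D3:**
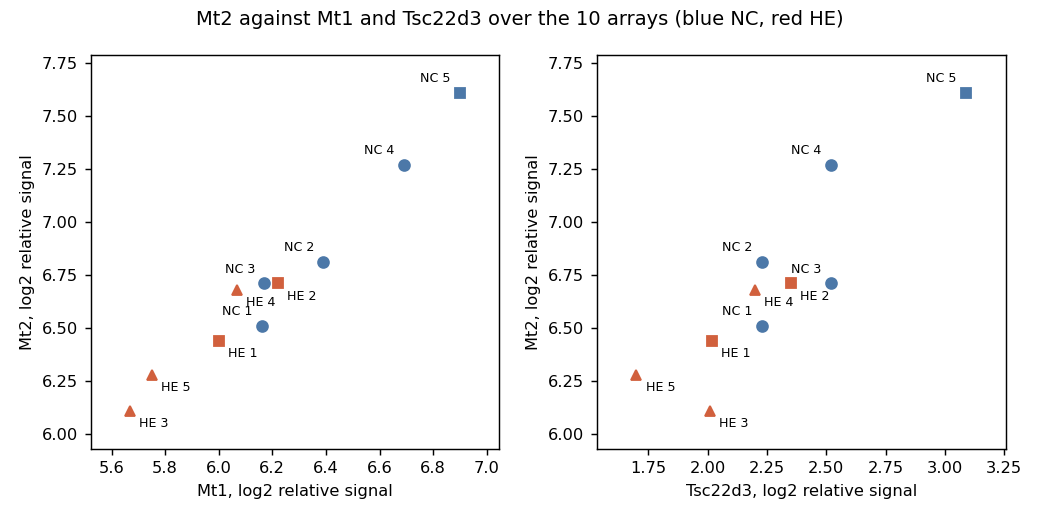
Log2 relative signal of Mt2 against Mt1 (left) and against Tsc22d3 (right) on the 10 arrays, NC in blue and HE in red, with marker shapes for slides 1 to 3 (circle, square, triangle). NC 5 is at the upper right and HE 3 and HE 5 at the lower left in both panels; with group means removed, r was 0.97 for Mt1 and Mt2 and 0.82 for Tsc22d3 and Mt2.

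The members were then compared with each other across animals, after the mean of each group had been taken away. Of 36 pairs, 1 passed an exact permutation test within groups with adjustment over the 36. Mt1 and Mt2 had r = 0.97 and rho = 0.96 over the 10 arrays (permutation p = 6.94e-05 and 0.000139, adjusted p = 0.0025 and 0.005). Without NC 1 and NC 5, the arrays farthest from the median of Mt1, r stayed at 0.97. It was 0.98 in NC alone, 0.97 in HE alone and 0.98 with the mean of each slide within a group removed.

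The next pairs did not pass the adjustment. Tsc22d3 had r = 0.82 with Mt2 (permutation p = 0.01, adjusted p = 0.0812), which was 0.73 without NC 5 and HE 5 and 0.65 without NC 5 alone. Hsd11b1 had r = 0.77 with Mt2 and 0.73 with Tsc22d3, each with an adjusted p of 0.0812 by permutation. Nr3c2 had r = 0.82 with Mt1 (permutation p = 0.00694, adjusted p = 0.0812), and 0.76 without NC 3 and HE 3. Nr3c1 and Nr3c2, the receptors, had r = -0.58 but rho = -0.24 (permutation p = 0.131 for r), and r was -0.07 without NC 2 and NC 3.

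**Figure D4:**
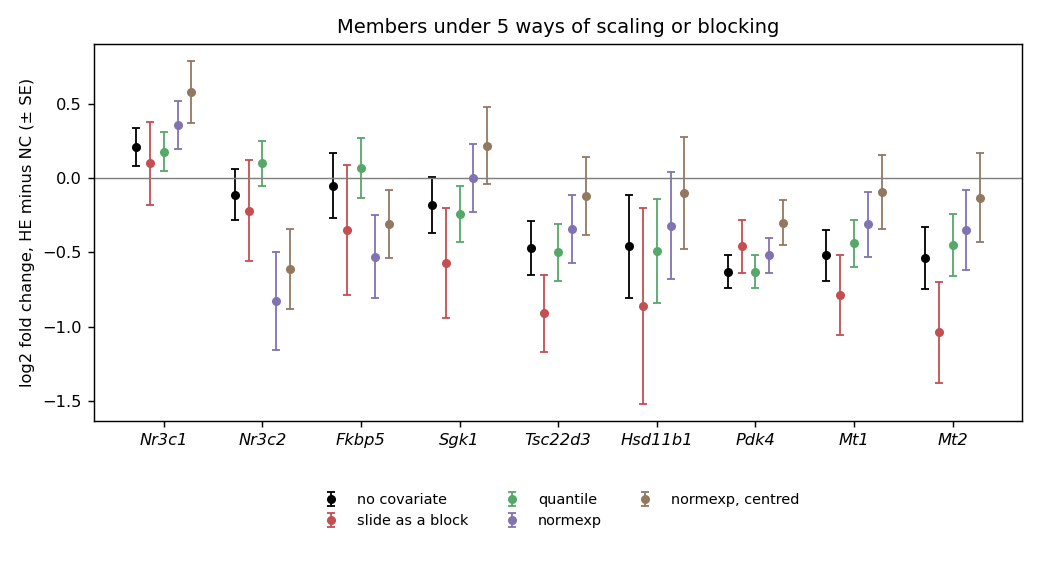
Log2 fold change of HE over NC with its SE for the 9 members under 5 settings: no covariate, slide as a block, quantile normalization, and normexp background correction before and after centring each array on its median gene. Pdk4 lies between -0.63 and -0.30 in all 5, Nr3c1 stays above 0, Nr3c2, Fkbp5 and Sgk1 change sign between settings, and the slide block gives the lowest values for Tsc22d3, Hsd11b1, Mt1 and Mt2.

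Beside the members, 58 further genes of the pathway were read from the same fit, and 54 of them were tested. In these, 5 rose and 2 fell (7 of 54 called, beside 20.1% of all genes), and their median log2 fold change was -0.04. The slide block left 0 of the 54 called (limma), where 185 of all genes were. The groups of hormone conversion and transport (5 tested), receptor chaperones (13 tested) and pituitary-adrenal signals (9 tested) had no gene called.

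Among hormone converting enzymes, H6pd supplies the cofactor that lets the Hsd11b1 enzyme work in the reducing direction. It had a difference of 0.29 ± 0.14 SE (limma adjusted p = 0.168). It was 0.43 after quantile normalization (limma adjusted p = 0.0472) and 0.43 with the values deposited by the authors (0.0467), and -0.35 under normexp. Hsd11b2, which inactivates corticosterone, was not well above background on any array. Of the chaperones, Fkbp4, the partner that favours transport of the receptor into the nucleus, had 0.12 ± 0.14. Hsp90aa1, the inducible heat shock protein that holds the unbound receptor, was lower on every HE array (6.29 to 6.48) than on every NC array (6.53 to 6.89), with a difference of -0.27 ± 0.09 that did not pass (adjusted p = 0.0618) and was 0.15 with centred normexp values.

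In the list of 32 glucocorticoid target genes, which includes 7 members, 30 were tested: 2 rose, 3 fell and 25 did not pass, with a median of -0.15. The share called was 16.7%, below the 20.1% of all genes, and 0 were called with slide as a block (limma). Klf9, a transcription factor induced by glucocorticoids and thyroid hormone, rose. It read 2.45, 1.44, 2.28, 2.05 and 1.69 in NC and 2.72, 2.78, 3.04, 2.71 and 2.76 in HE. All HE arrays were above all NC arrays and far less scattered (difference 0.82 ± 0.19 SE, 1.77-fold, limma adjusted p = 0.0182). Klf9 was called in every fit that left out an array (0.68 to 0.94), and its other tested probe had the same sign. It was 1.05 with slide as a block and did not pass.

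Mertk, a receptor kinase used by astrocytes and microglia to clear debris, rose by 0.43 ± 0.11 (limma adjusted p = 0.0281). Tat, the tyrosine aminotransferase that is the classic glucocorticoid-induced liver enzyme, fell by 0.87 (± 0.21 SE, limma adjusted p = 0.0226). NC 1 read -0.18 and the other NC arrays -1.46 to -1.03, with HE at -1.98 to -1.63. Without the 3 arrays with high liver genes, NC 1, NC 2 and NC 4, its difference was -0.71 and still passed (adjusted p = 0.0348); it did not pass without NC 2 alone. Ndrg2, a stress-responsive astrocyte gene, fell by 0.35 (± 0.09 SE, limma adjusted p = 0.028), but was 0.14 with centred normexp values, and lost its call without NC 2, HE 1, HE 4 or HE 5. The call of Mertk was lost without NC 2, NC 5, HE 2, HE 3 or HE 4.

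The immediate target Per1, a clock gene with a response element in its promoter, had 0.69 ± 0.22 (limma adjusted p = 0.0534) and was called in 8 of 27 alternatives. Dusp1, a phosphatase of MAP kinases, had 0.19 ± 0.26. Nfkbia, the inhibitor of NF-κB, had -0.21 ± 0.11, and 0.21 with centred normexp values.

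Of the 7 metallothionein and zinc genes, 3 rose and none fell, beside 6.82% of all genes called higher, and 0 were called with slide as a block (limma). Slc39a10, which imports zinc, went from 0.85 ± 0.29 to 1.62 ± 0.18, a rise of 0.77 ± 0.15 SE (1.71-fold, limma adjusted p = 0.0128). Slc30a1, which exports zinc from the cell and is induced by it, read 0.11, 0.15, 0.21, 0.23 and 0.08 in NC and 0.53, 0.37, 0.67, 0.58 and 0.85 in HE, a rise of 0.44 ± 0.10 (limma adjusted p = 0.0171). Both were above every NC array on every HE array, and both passed in every fit that left out an array. Slc30a3, which loads zinc into the synaptic vesicles of glutamatergic neurons, rose by 1.13 ± 0.31 (limma adjusted p = 0.0332), with an overlap between groups; it lost its call without NC 1, NC 4, NC 5, HE 1, HE 2, HE 4 or HE 5. The hippocampal neuron markers had a median of -0.09 to 1.21 over the NC arrays and 0.90 to 1.48 over the HE arrays, and their part in these rises was not tested. Mt3, the metallothionein of neurons and astrocytes, had -0.16 ± 0.19, and 0.72 with slide as a block, since NC 5 at 3.16 lay below all other arrays. Slc39a10 was 1.17 and Slc30a1 0.36 with slide as a block, and neither passed. Without NC 1, NC 2 and NC 4 the 3 rises were 0.69, 0.45 and 1.42 for Slc39a10, Slc30a1 and Slc30a3, and none passed.

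Of the signals of the hypothalamus, pituitary and adrenal axis, 9 were tested. Crhr1, the receptor of corticotropin-releasing hormone in the forebrain, had a difference of -0.03 ± 0.19 (limma adjusted p = 0.917), and changed sign under several settings. Crh itself was not analysed here.

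**Figure D5:**
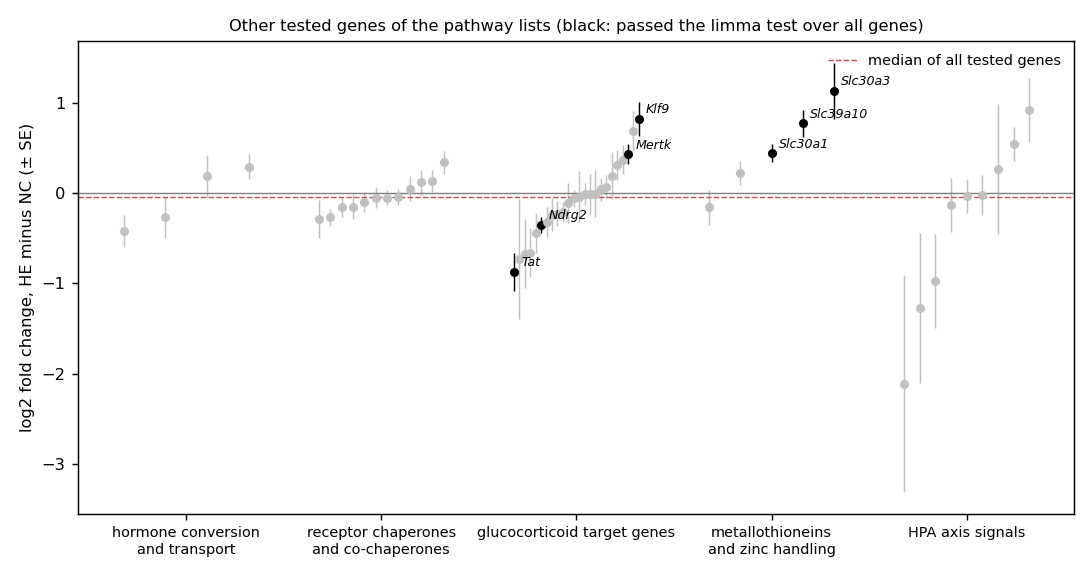
Log2 fold change of HE over NC with its SE for the 54 tested genes of the pathway lists other than the members, by list. Black points passed the limma test over all genes, and the dashed line is the median of all genes tested, -0.043. The 7 called genes are Tat and Ndrg2 below 0 and Mertk, Klf9, Slc30a1, Slc39a10 and Slc30a3 above it.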

How the data were processed

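RNA from 10 hippocampi was labelled with Cy3 and read on 60-base Agilent probes, per the labels' protocols, and scanned images were read out by version 10.7 of Agilent Feature Extraction, as the submitters' processing notes state. The deposited intensity values are linear and, per the file headers, background-subtracted and detrended within the array. The authors also deposited a table of log2 values whose making is not given in the sources used here; its columns had medians of 7.0334 to 7.0337 and correlated with the scanner's log2 signals at 0.9995 to 0.9999, with the same direction, and it served as an alternative.

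Log2 processed signals were set relative to the 75th percentile of all non-control spots. The spots of a probe were averaged without those marked as outliers (68 to 129 an array). A probe entered if well above background on at least 3 of 5 arrays of a group, and a gene was represented by its brightest entering probe. limma 3.58.1 in R 4.3.3 (lmFit, eBayes, two-sided, no covariate) was fitted on all genes, and separately on all probes, with Benjamini-Hochberg adjustment and a threshold of 0.05; the script was tested on simulated data. Probe pairs and pairs of members were tested by exact permutation over arrays. Names came from RefSeq (GRCm38.p6): 27668 probes by accession, 93 by another accession, 5531 by symbol and 460 by synonym, while 7422 kept the file's name. Probe positions are mm9, per the files.

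Alternatives were slide or replicate number as a block, normexp (offset 50) with and without centring, quantile normalization, the authors' table, other filters and probe rules, an intensity trend, covariates and leaving out arrays. Centring used the median of all tested genes for gene values and that of all tested probes for probe values, which gave different fold changes. Slide with the Xist pattern, the percentile over probes and the probe-pair differences were added after seeing the data. The members and lists were chosen with earlier results of these data known. All members and their probes are named; of the other lists, the called genes (up to 6 a list, by p) and Hsd11b2, H6pd, Fkbp4, Hsp90aa1, Per1, Dusp1, Klf9, Nfkbia, Mt3, Crh and Crhr1 are. The number of arrays limits the precision.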

Additional observations from a re-analysis of the deposited data

Results flagged for a closer look

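In 68 group series of 5 arrays, those of the tested member probes and of the other named genes in each group, 5 (7.35%) had an array set apart from the other 4 by Dixon's criterion, which chance gives in about 5% of series. For the Fkbp5 probe A_52_P337899, NC 4 read -4.13 and the other NC arrays -4.77 to -4.61. For the Tsc22d3 probe A_51_P235816, NC 5 read 2.94 and the others 2.23 to 2.40. Mt3 read 3.16 on NC 5 and 3.92 to 4.20 on the other NC arrays. In HE, Klf9 read 3.04 on HE 3 and 2.71 to 2.78 on the others. Dusp1 read -0.19 on HE 4 and 0.76 to 0.89 on the others. NC 5 is the only NC array of slide 2 and the only one without high Xist.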

How the results depend on the processing

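Over 798 values of single genes and probes under the alternatives, 52 changed sign, whether or not their call changed as well. Among those that kept their sign, 625 stayed on their side of the threshold, 99 lost a call and 22 gained one. The causes were not tested.

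All genes called numbered 4031, and 185 with slide as a fixed block, 8880 with normexp, 8863 with centred normexp, 1918 without NC 1, NC 2 and NC 4, 1 with the thalamus mean, 0 with the myelin mean (limma; 3523 at an unadjusted p under 0.05) and 3 with slide and Xist pattern; leaving out an array gave 1925 (NC 2) to 4177, with 1974 without HE 1 and 2219 without NC 5. Higher genes made up 34.0% of the calls, 44.2% after quantile normalization (1897 higher, 2399 lower), 20.1% with normexp (1787 and 7093) and 56.2% with slide as a block (104 and 81). Normexp moved the median of all genes from -0.043 to -0.291. Members called numbered 1 and became 0 with slide as a block, without NC 1, NC 2 and NC 4, with the thalamus or myelin mean and with slide and Xist pattern (limma, 4, 4, 2, 1 and 2 at an unadjusted p under 0.05), and 2, with Mt1 added, for probes well above background on all 10 arrays, an intensity trend and the Xist pattern; leaving out an array gave 1 to 2 (2 without NC 1 or NC 3). In the same fits, in that order, 4713, 6646, 2988, 3523 and 2900 of all 20068 genes had an unadjusted limma p under 0.05. Under centred normexp the 1 called member was Nr3c1 (0.58, adjusted p = 0.0428), not Pdk4. Other pathway genes called numbered 7, and 0 with slide as a block, the thalamus or myelin mean or slide and Xist pattern, 2 without NC 1, NC 2 and NC 4, 14 with normexp, 18 when centred, and 4 (without NC 2) to 9 over arrays left out. Probes called numbered 7109, and 242 with slide as a block, 14373 with normexp, 14542 when centred, and 3755 (NC 2) to 7411 over arrays left out, with 3813 without HE 1 and 4148 without NC 5. Member probes called numbered 5, and 0 with slide as a block, 3 with centred normexp, 3 with the replicate block, and 1 (without NC 2, NC 5, HE 3 or HE 5) to 5, with 2 without HE 4 and 3 without HE 1, over arrays left out.

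With the replicate block 2976 genes, 1 member, 5 other pathway genes and 5704 probes were called. Arrays of the same number correlated at -0.08 to 0.13. The best match in HE had the same number for NC 3 and NC 4, and another number for NC 1, NC 2 and NC 5. With so few arrays this cannot decide whether the numbers pair the animals.

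Signs changed as follows. Without NC 1, NC 2 and NC 4: Nr3c1 -0.04, Nr3c2 0.04, Fkbp5 0.14, Mt3 0.16, Crhr1 0.17. Quantile normalization gave Nr3c2 0.10 and Fkbp5 0.07, and the values deposited by the authors 0.10 and 0.08. The mean of all probes gave Nr3c1 -0.01, Fkbp5 0.46 and Crhr1 0.31. Normexp gave H6pd -0.35, Mt3 0.05, Crhr1 0.14, Nr3c1 probe A_51_P355693 -0.96 and the Fkbp5 probes A_52_P337899 -0.79 and A_51_P383689 -0.33. Centred normexp gave Sgk1 0.22, Ndrg2 0.14, H6pd -0.13, Hsp90aa1 0.15, Nfkbia 0.21, Mt3 0.27, Crhr1 0.35, and the probes A_51_P355693 -0.59, A_52_P337899 -0.42 and A_52_P600518 (Tsc22d3) 0.08. The thalamus mean gave Nr3c2 0.08, Sgk1 0.15, Tsc22d3 0.06, Hsd11b1 1.0, Mt2 0.07, Dusp1 -0.51 and Crhr1 0.03, and the myelin mean Sgk1 0.19, Tsc22d3 0.08, Hsd11b1 0.14 and Hsp90aa1 0.04. Slide as a block gave Mt3 0.72 and Crhr1 0.40, and slide with the Xist pattern Nr3c2 0.05, Hsd11b1 0.18, Fkbp4 -0.25, Mt3 0.71 and Crhr1 1.08. Leaving out an array gave Fkbp5 -0.17 to 0.09, Crhr1 -0.10 to 0.12 and A_51_P355693 -0.08 to 0.13. Slide 2 is the only slide with both groups, and there the groups also differ in the Xist pattern. The fit with slide and Xist pattern, which draws on HE 3 to HE 5 for the latter, gave Pdk4 -0.67 and Tsc22d3 -0.98.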
